A study of Homo sapiens with 6 samples.

Results

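The genes of the ATF4 amino acid and integrated stress response were followed in the colorectal cancer line HCT116 (human) after silencing of SLCO1B3. They were 43 genes named by hand from this pathway and matched by symbol to the 58302 genes of the deposited table. Of them 41 passed the filter on low counts. These genes and the other lists used below were chosen with earlier results of these data known. For 8 tRNA synthetases the match used an older symbol without the final digit (AARS for AARS1). VLDLR, a lipoprotein receptor, and CBS, the first enzyme of transsulfuration, did not pass. CBS had 5, 0 and 0 counts in the si-NC libraries and 1, 0 and 2 in the si-SLCO1B3 libraries. A gene named after it, CBSL, also lies on chromosome 21. Its only read was 1 count in si-SLCO1B3 library 1. How reads that match both genes were counted is not given in the sources used here and was not tested. The low counts are therefore not read as absence of CBS.

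ATF4 is a transcription factor whose translation rises when the initiation factor eIF2 is phosphorylated. The kinases that phosphorylate eIF2 respond to amino acid shortage (EIF2AK4), unfolded protein in the endoplasmic reticulum (EIF2AK3), double-stranded RNA (EIF2AK2) and heme shortage or mitochondrial stress (EIF2AK1). ATF4 then raises genes that make, import and charge amino acids, and it shares this work with CEBPB, CEBPG and DDIT3 (also called CHOP). Among its targets, TRIB3 and PPP1R15A dampen the response, the latter by bringing a phosphatase to eIF2. Since ATF4 is controlled in large part by translation, its mRNA level is an incomplete reading of its activity.

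RNA of 6 libraries was sequenced. The 3 si-NC libraries came from cells transiently transfected with a negative control siRNA and the 3 si-SLCO1B3 libraries from cells transfected with siRNA against SLCO1B3, an uptake transporter of organic anions, and each group has a library numbered 1, 3 and 5. The labels give the same control sequence to all si-NC libraries but another SLCO1B3 siRNA to each si-SLCO1B3 library (si2-SLCO1B3 to number 1, si3-SLCO1B3 to number 3 and si1-SLCO1B3 to number 5), whereas the study's methods name si1-SLCO1B3 alone. Within the si-SLCO1B3 group the library number and the siRNA therefore cannot be told apart. What the numbers stand for is not given in the sources used here, nor is the time from transfection to harvest, and nothing says that libraries came from separate cultures, so p-values measure only the spread between these libraries. The labels state DMEM as the medium and the methods state RPMI for this cell line. These media hold different amounts of amino acids, and which was used for these libraries is not settled by the sources.

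The libraries held 17290442 to 21278903 counts, and both libraries numbered 5 had the highest share of counts on mitochondrial genes (8.06% and 8.90%, against 6.70% to 7.63% in the other four). They also had fewer counts on histone genes (0.134% and 0.147%) than the other four (0.200% to 0.262%). The part of these shares in any difference of the libraries numbered 5 was not tested. SLCO1B3 itself was at 8.88, 14.2 and 20.7 CPM (counts over the library total, adjusted by TMM factors) in si-NC libraries 1, 3 and 5 and at 5.86, 9.16 and 3.15 CPM in the si-SLCO1B3 libraries. The groups overlapped, and within each number the silenced library was the lower, with log2 ratios of -0.60, -0.63 and -2.71 for numbers 1, 3 and 5. Its log2 fold change was -1.27 (SE 0.43, edgeR's unadjusted p = 0.0207, adjusted p = 0.9998), and with the library number as a block it was -1.28 (unadjusted p = 0.0330, adjusted p = 0.682). Of the epithelial markers, EPCAM (395 to 452 CPM), KRT8, KRT18, CDH1 and CDX2 were present, VIL1 was at 0 to 0.114 CPM and CDX1 had 0 counts in every library. Markers of fibroblasts, leukocytes and endothelium summed to 114 to 202 CPM, most of it COL1A1 and COL1A2. In bulk RNA fewer cells expressing a gene and less of its RNA per cell cannot be told apart.

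ATF4 and its C/EBP partners bind a composite element, the CARE, with the core TGATGNAA. Promoter windows of RefSeq (GRCh38.p14, from 250 bases before to 50 after a start of the gene) were at hand for 37 of the 43 genes. The core, read on both strands, was found in 14 of them (37.8%), against 4.46% of 27305 genes with a window and 2.77% of the 11195 tested genes with a window. A gene could have several windows, and a match in any of them was counted. The 37 members had 60 windows, the 27305 genes had 35116 and the 11195 tested genes had 16262. The shares were not adjusted for the number of windows. By role the core was in 5 of 9 genes of tRNA charging and export, 4 of 7 amino acid transporters, 3 of 8 transcription factors and partners, 1 of 6 stress effectors and 1 of 6 enzymes of amino acid synthesis. Sites of 8 of these 14 genes are shown, among them 4 of the genes called lower in the libraries numbered 5. Those of ATF3, SLC1A5, SLC3A2, SLC7A1, MARS1 and NARS1 are not printed. Each is printed 5′ to 3′ on the strand that reads TGATGNAA, with the match in capitals.
ASNS: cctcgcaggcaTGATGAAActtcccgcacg
CARS1: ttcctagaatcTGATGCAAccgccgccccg
AARS1: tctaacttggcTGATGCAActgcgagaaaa
SLC1A4: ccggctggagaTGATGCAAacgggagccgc
CEBPG: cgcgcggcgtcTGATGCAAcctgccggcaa
JDP2: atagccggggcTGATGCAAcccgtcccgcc
GARS1: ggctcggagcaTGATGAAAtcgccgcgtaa
CHAC1: cctggcaggagTGATGCAAcggcaggggag

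The site of ASNS lies at chr7:97872458-97872487 on the minus strand, that of CARS1 at chr11:3057407-3057436 on the plus strand, that of AARS1 at chr16:70289675-70289704 on the plus strand and that of SLC1A4 at chr2:64989381-64989410 on the minus strand. That of CEBPG lies at chr19:33374060-33374089 on the plus strand, that of JDP2 at chr14:75427995-75428024 on the plus strand, that of GARS1 at chr7:30594834-30594863 on the minus strand and that of CHAC1 at chr15:40953251-40953280 on the minus strand. Positions were counted along the gene from the start used for the window, which need not be the outermost start of the gene. The first base of the match was 68 bases before that start in ASNS (position -68), at -42 in CEBPG, -33 in GARS1, -16 in JDP2, -7 in SLC1A4 and -2 in CARS1. It lay farther upstream in AARS1 (-187) and CHAC1 (-209). The sequence read TGATGCAA in 6 of the 8 sites and TGATGAAA in ASNS and GARS1. Among the sites not printed it read TGATGGAA in ATF3, TGATGTAA in SLC3A2 and TGATGAAA in SLC7A1. In SLC1A5, MARS1 and NARS1 it read TGATGCAA. The CRE TGACGTCA, an element bound by ATF and CREB factors, was found for 1 member, PPP1R15A, and in 2.25% of all genes with a window. A match describes letters in this window and is no evidence of binding in these cells.

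Levels between genes were compared by the deposited FPKM (fragments over gene length and library total), in the si-NC libraries. SLC7A5, the light chain of the large neutral amino acid transporter, had the highest mean, 247 ± 32.5 FPKM (SD, n = 3), followed by ATF4 at 167 ± 22.1 and PSAT1, a serine synthesis enzyme, at 160 ± 43.9 FPKM. The SD intervals of ATF4 and PSAT1 overlap, so their order is not resolved. DDIT4, an inhibitor of mTORC1, followed at 124 ± 76.8 FPKM and AARS1, the alanyl-tRNA synthetase, at 108 ± 29.2 FPKM. The SD interval of DDIT4 overlaps those of ATF4, PSAT1 and AARS1, so its rank among them is not resolved either. At the low end stood ALDH1L2 (0.243 FPKM), NUPR1 (0.135 FPKM), CBS (0.00784 FPKM) and VLDLR (0.00728 FPKM). For CBS the limit on its counts given above applies to this rank too.

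**Figure D1:**
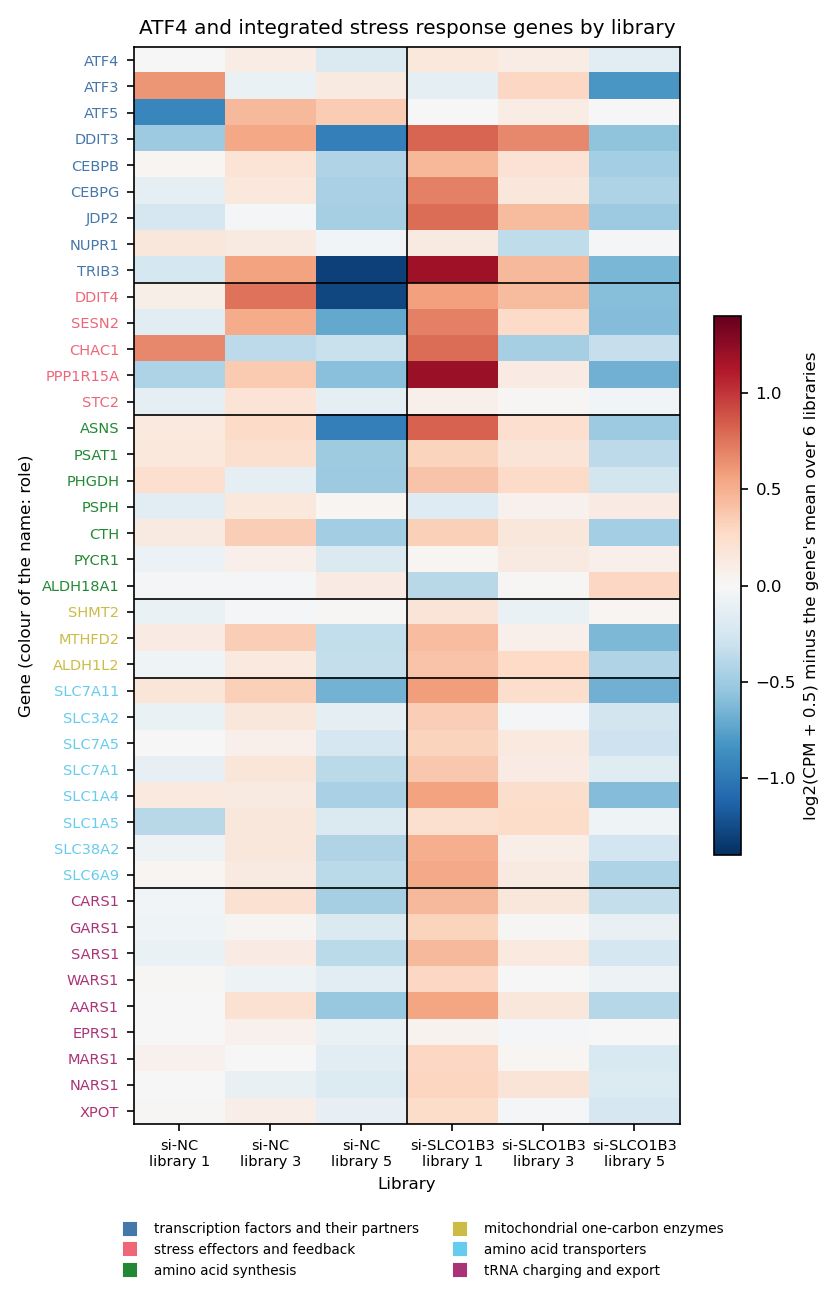
Heat map of the 41 genes tested (rows, grouped and coloured by role) in the 6 libraries (columns), as log2(CPM + 0.5) minus the gene's mean over the 6 libraries. The libraries numbered 5 are blue for most genes in either group, with a median over genes of -0.35 in si-NC and -0.28 in si-SLCO1B3, and si-SLCO1B3 library 1 is mostly red, with a median of 0.38.

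Silencing of SLCO1B3 was compared first. None of the 41 genes differed between si-SLCO1B3 and si-NC at an adjusted p under 0.05 (edgeR's quasi-likelihood test, Benjamini-Hochberg over 16414 genes), where 0 genes of all those tested did (0.00%). At an unadjusted p under 0.05 there were also 0, against 4.36% of all genes, and limma-voom and DESeq2 called 0 members after adjustment. The smallest unadjusted p among the members was 0.110, of JDP2, a leucine zipper repressor. For 0 members did the 3 si-SLCO1B3 libraries all lie above or all below the 3 si-NC libraries, where 5.01% of all genes were wholly higher and 5.50% wholly lower. The log2 fold changes ran from -0.41 (ATF3) to 0.66 (TRIB3) with a median of 0.15, against 0.0049 over all genes, and 35 of 41 were above 0, against 8379 of 16414.

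The size of the positive median depended on which libraries were compared. Between libraries of the same number, the median log2 ratio of si-SLCO1B3 to si-NC over the members was 0.41 for number 1, with 37 of 41 genes higher, -0.045 for number 3, with 16 higher, and 0.053 for number 5, with 26 higher. Without si-SLCO1B3 library 1 the median of the fitted log2 fold changes was 0.0018. Leaving out library 5 gave 0.041 for that of si-NC and 0.34 for that of si-SLCO1B3. Each of these fits leaves the numbers unequal between the groups, so the parts of the library and of its number cannot be told apart. With the library number as a block, 2 members had an unadjusted p under 0.05, where 7.16% of all genes did. By edgeR's quasi-likelihood test they were DDIT3 (log2 fold change 0.63, SE 0.24, unadjusted p = 0.0458) and PHGDH, the first enzyme of serine synthesis (0.28, SE 0.086, unadjusted p = 0.0205), and the adjusted p of each was 0.682.

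TRIB3 and PPP1R15A show the pattern of the silenced group. TRIB3, a pseudokinase that binds ATF4 and AKT, was at 83.6, 148 and 39.9 CPM in si-NC libraries 1, 3 and 5 and at 227, 137 and 63.7 CPM in si-SLCO1B3 libraries 1, 3 and 5. Its log2 fold change was 0.66 (SE 0.55, adjusted p = 0.9998). PPP1R15A, the eIF2 phosphatase subunit GADD34, was at 104, 180 and 93.4 CPM in si-NC and at 323, 151 and 87.3 CPM in si-SLCO1B3 libraries (log2 fold change 0.57, SE 0.47). In both genes si-SLCO1B3 library 1 was the highest of all 6, and the other five libraries were interleaved between the groups.

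In the remaining roles the widest differences also missed the test, each with an adjusted p of 0.9998. ASNS, asparagine synthetase, had a log2 fold change of 0.38 (SE 0.40), ALDH1L2, a mitochondrial folate enzyme, of 0.23 (SE 0.29), SLC1A5, a glutamine transporter, of 0.27 (SE 0.16) and SARS1, the seryl-tRNA synthetase, of 0.25 (SE 0.20). ATF4 mRNA was at 684 ± 74.2 CPM (SD, n = 3) in si-NC and 717 ± 78.4 CPM in si-SLCO1B3 cells. CHAC1, an enzyme that degrades glutathione, was at 92.3, 44.8 and 46.5 CPM in si-NC and at 99.8, 41.6 and 46.2 CPM in si-SLCO1B3 libraries. The levels of CHAC1 followed the library number, high in both libraries numbered 1, and the groups differed by a log2 fold change of 0.030 (SE 0.41), a sign that turned under limma-voom and under limma on FPKM.

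**Figure D2:**
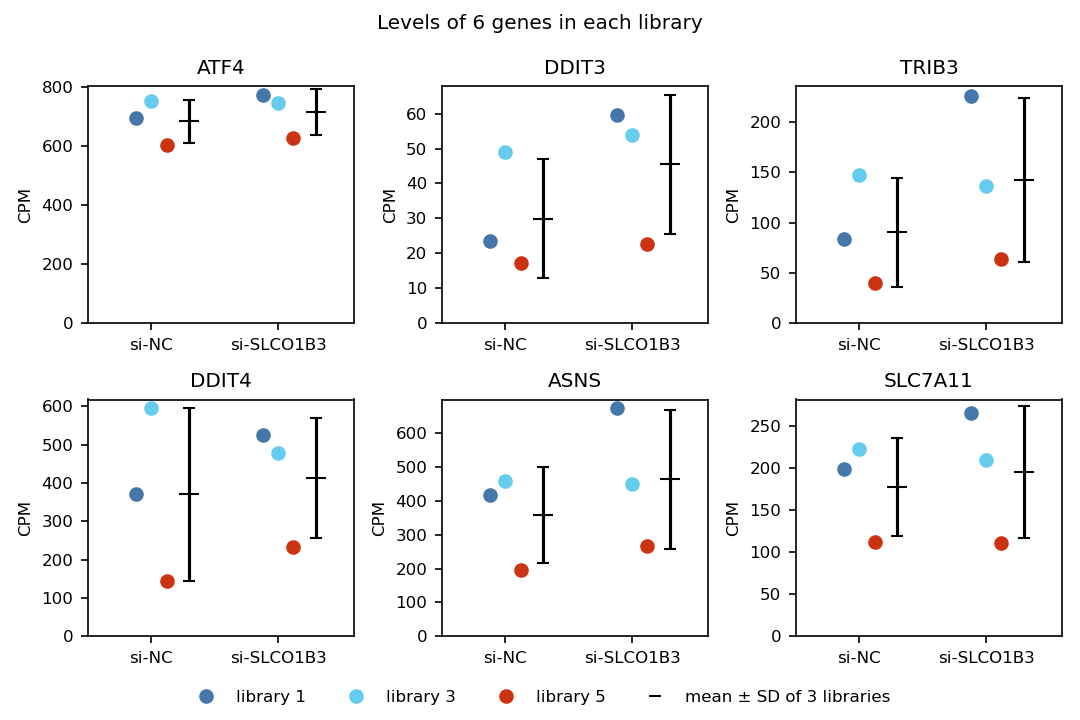
CPM (y axis, from 0) of ATF4, DDIT3, TRIB3, DDIT4, ASNS and SLC7A11 in each library, by group (x axis), coloured by library number, with the mean ± SD of 3 libraries beside the points. In each panel the red point, library 5, is the lowest of its group. The genes shown are a selection. Of those not drawn, ATF3 and CHAC1 had library 3 lowest in si-NC, while PSAT1, SESN2 and SLC7A5 had library 5 lowest in both groups.

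The libraries numbered 5 were then compared with those numbered 1 and 3, with the group in the model. Of the 41 genes, 11 were lower in the libraries numbered 5 at an adjusted p under 0.05 (26.8%) and 0 were higher. Of all genes tested 2.92% were called lower and 2.0% higher. Among the 11 are CEBPB and TRIB3 of the transcription factors and their partners, and the stress effector DDIT4. The others are the synthesis enzymes ASNS, PSAT1 and CTH, the mitochondrial folate enzyme MTHFD2, the transporters SLC7A11 and SLC1A4, and the synthetases CARS1 and AARS1. At an unadjusted p under 0.05, 27 members were lower (65.9%) and 0 higher, against 15.6% and 13.5% of all genes. In 29 members both libraries numbered 5 lay below all 4 others, and in 1, ALDH18A1, they lay above, against 19.9% and 18.7% of all genes. The median log2 fold change was -0.54, against -0.010 over all genes, and 37 of 41 were negative.

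The adjusted calls need all 6 libraries. With any library left out, 0 members were called lower (any si-NC library, or number 1 or 5 of the si-SLCO1B3 libraries), except that ASNS alone was called without si-SLCO1B3 library 3, and over all genes no more than 14 calls then remained. The counts at an unadjusted p under 0.05 were 13 without si-SLCO1B3 library 5 and at most 28 with another left out, and the median stayed between -0.60 and -0.41. Each of the 11 genes had a negative log2 fold change in all 15 settings tried. So did ATF3, ATF4, CHAC1, DDIT3, SESN2 and SLC7A5, which were not called. The settings reuse the same libraries, so a kept sign is no independent support.

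Among the transcription factors and their partners, 2 of 9 were called lower and the median was -0.68. ATF4 (chromosome 22, 39519695 to 39522685 in GRCh38) was at 696, 752 and 605 CPM in si-NC libraries 1, 3 and 5 and at 775, 747 and 628 CPM in the si-SLCO1B3 libraries. Both libraries numbered 5 were the lowest, at 83.6% and 82.4% of the mean of the others in their group, and the difference missed the threshold (log2 fold change -0.27, SE 0.070, adjusted p = 0.0748). DDIT3, the pro-apoptotic partner of C/EBP factors, was at 23.6, 49.1 and 17.1 CPM in si-NC and at 59.6, 54.0 and 22.7 CPM in si-SLCO1B3 libraries. Its log2 fold change of -1.21 (SE 0.29) was larger than that of 9 of the 11 genes called, with an adjusted p of 0.0661. DDIT3 shares 355 exon bases with MARS1 on the opposite strand, and whether the counting used strand is not given in the sources used here.

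TRIB3 (chromosome 20, 362835 to 397559) had the largest difference of the members. The libraries numbered 5, at 39.9 and 63.7 CPM, were below the other four, and stood at 34.5% of the mean of 1 and 3 in si-NC and 35.0% in si-SLCO1B3 (log2 fold change -1.52, SE 0.30, adjusted p = 0.0476). CEBPB, which pairs with ATF4, was at 65.3, 73.3 and 47.7 CPM in si-NC and at 88.7, 73.6 and 45.9 CPM in si-SLCO1B3 (log2 fold change -0.68, SE 0.13, adjusted p = 0.0452). CEBPG (-0.68, adjusted p = 0.0833) and JDP2 (-0.74, adjusted p = 0.0916) had like values, lowest in both libraries 5. ATF3, a stress-induced repressor, had another order. It was at 46.9, 28.3 and 33.0 CPM in si-NC and at 27.7, 37.1 and 16.9 CPM in si-SLCO1B3 libraries, so that library 5 was lowest only in the silenced group (log2 fold change -0.54, SE 0.28, adjusted p = 0.248). ATF5 was at 0.20 (SE 0.37), and it shares 626 exon bases with NUP62 on the opposite strand, a gene that was at 160 and 168 CPM in the libraries numbered 5 and at 70.1 to 138 CPM in the others. The part of NUP62 reads in the ATF5 value was not tested. NUPR1 stayed under 1 CPM in every library.

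Of the stress effectors 1 of 5 was called lower, with a median of -1.004. DDIT4 (chromosome 10, 72273920 to 72276036), which restrains mTORC1, was at 370, 595 and 145 CPM in si-NC and at 523, 479 and 233 CPM in si-SLCO1B3 libraries. Library 5 was at 30.0% of the mean of 1 and 3 in si-NC and at 46.5% in si-SLCO1B3 (log2 fold change -1.41, SE 0.24, adjusted p = 0.0402). SESN2, a leucine sensor that also acts on mTORC1, was at 107, 171 and 72.8 CPM in si-NC and at 195, 144 and 78.1 CPM in si-SLCO1B3 (log2 fold change -1.03, SE 0.22, adjusted p = 0.0549). Both mTORC1 inhibitors were thus lowest in the libraries numbered 5, of which DDIT4 alone passed the test. PPP1R15A had a log2 fold change of -1.004 (SE 0.40, adjusted p = 0.157) and CHAC1 of -0.59 (SE 0.41, adjusted p = 0.390). CHAC1 in libraries 5 was level with libraries 3, and the libraries numbered 1 stood above both. STC2, a secreted glycoprotein, was at 193 to 242 CPM throughout (-0.13, SE 0.11).

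Enzymes that make amino acids were called lower in 3 of 7, with a median of -0.58. ASNS (chromosome 7, 97852118 to 97872542) was at 417, 459 and 195 CPM in si-NC and at 674, 448 and 266 CPM in si-SLCO1B3 libraries (log2 fold change -1.12, SE 0.17, adjusted p = 0.0349). An overlapping readthrough gene, ENSG00000284707, shares 1985 exon bases with ASNS on the same strand and held 0.340 to 4.53 CPM in 5 libraries and 44.7 CPM in si-SLCO1B3 library 3, which is small beside ASNS. PSAT1 was at 473, 496 and 301 CPM in si-NC and at 530, 481 and 331 CPM in si-SLCO1B3 libraries (-0.65, SE 0.078, adjusted p = 0.0282), with the smallest adjusted p of the members. CTH, the cysteine-forming enzyme of transsulfuration, was at 18.5, 21.7 and 11.97 CPM in si-NC and at 21.5, 19.0 and 12.1 CPM in si-SLCO1B3 (-0.75, SE 0.13, adjusted p = 0.0426).

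The serine enzymes did not share a sign. PHGDH, which precedes PSAT1, was at -0.58 (SE 0.12, adjusted p = 0.0520) and lowest in both libraries numbered 5, while PSPH, which follows it, was at 0.10 (SE 0.13) with overlapping libraries. The proline enzymes PYCR1 (-0.10, SE 0.090) and ALDH18A1 (0.30, SE 0.13, adjusted p = 0.200) were not called. ALDH18A1 was at 193 and 219 CPM in the libraries numbered 5 and at 137 to 180 CPM in the others. Of the mitochondrial folate enzymes, MTHFD2 was at 598, 701 and 432 CPM in si-NC and at 746, 580 and 357 CPM in si-SLCO1B3 (-0.74, SE 0.14, adjusted p = 0.0457). ALDH1L2 was at 2.62 to 5.01 CPM (-0.65, adjusted p = 0.0909), and SHMT2, which feeds serine carbon into the same pathway, was at 0.033 (SE 0.096).

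All 8 transporters had a negative log2 fold change, 2 of them called, and the median was -0.47. SLC7A11 (chromosome 4, 138164097 to 138242349), the cystine and glutamate exchanger, was at 199, 222 and 112 CPM in si-NC and at 265, 210 and 111 CPM in si-SLCO1B3 libraries. The libraries numbered 5 were nearly equal, at 53.0% and 46.6% of the mean of 1 and 3 (log2 fold change -1.01, SE 0.12, adjusted p = 0.0287). SLC1A4, a carrier of alanine, serine and cysteine, was at 40.7, 40.3 and 26.9 CPM in si-NC and at 55.0, 44.1 and 24.1 CPM in si-SLCO1B3 (-0.81, SE 0.15, adjusted p = 0.0453). SLC7A5 was at 1319, 1390 and 1127 CPM in si-NC and at 1646, 1458 and 1087 CPM in si-SLCO1B3 libraries (-0.39, SE 0.094, adjusted p = 0.0648). Its heavy chain SLC3A2, shared with SLC7A11, was at -0.29 (SE 0.14, adjusted p = 0.217), also lowest in both libraries 5. The other carriers were SLC6A9 (-0.62), SLC38A2 (-0.53), SLC7A1 (-0.42) and SLC1A5 (-0.21), with adjusted p from 0.0709 to 0.420. Only in SLC1A5, of the 8, did the libraries overlap.

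The 9 genes of tRNA charging and export were all negative, with a median of -0.28, and 2 were called. AARS1 was at 659, 759 and 455 CPM in si-NC and at 960, 728 and 495 CPM in si-SLCO1B3 libraries (-0.71, SE 0.13, adjusted p = 0.0453). CARS1, the cysteinyl-tRNA synthetase, was at 195, 231 and 145 CPM in si-NC and at 274, 224 and 159 CPM in si-SLCO1B3 (-0.60, SE 0.12, adjusted p = 0.0479). In both genes the libraries numbered 5 lay below all 4 others. The others ran from SARS1 (-0.47, adjusted p = 0.0705) through NARS1 (-0.29), MARS1 (-0.28), XPOT, the exporter of tRNA from the nucleus (-0.27), GARS1 (-0.23) and WARS1 (-0.17) to EPRS1 (-0.073, SE 0.069).

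**Figure D3:**
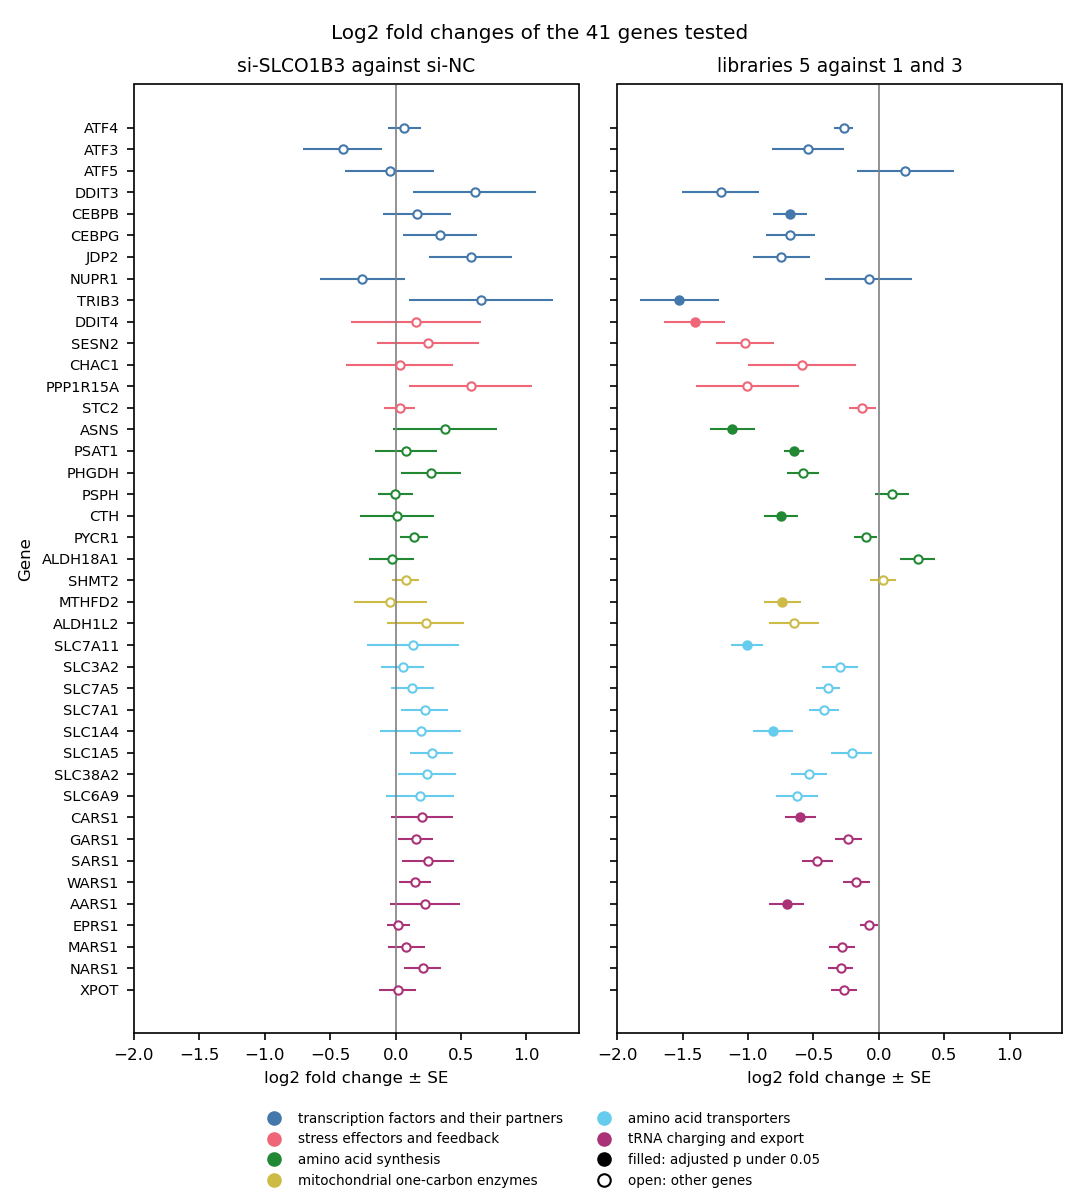
Log2 fold change ± SE (x axes) of the 41 genes (rows, coloured by role) for si-SLCO1B3 against si-NC (left) and for libraries 5 against 1 and 3 (right), with filled points for an adjusted p under 0.05. Filled points occur in the right panel alone, 11 in number and all below 0.

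The number 5 difference was read in each group apart, which share no library. Within si-NC, library 5 was below the mean of libraries 1 and 3 in 37 of 41 members, with a median log2 ratio of -0.42, and within si-SLCO1B3 in 38, with a median of -0.59. In 36 members it was lower in both groups, in 2 higher in both, and in 3 the groups differed in sign. Across the 41 members the log2 ratios of the groups had Pearson's r = 0.78, and across 16329 genes with a count in every library r = 0.48, where genes within a library are not independent. A test of whether the difference depended on the group called 0 members at an adjusted p under 0.05 (edgeR's quasi-likelihood test, 0.0122% of all genes), and limma-voom and DESeq2 called 0. At an unadjusted p under 0.05 it gave 1, JDP2 (difference of log2 fold changes -0.80, SE 0.31, unadjusted p = 0.0456, adjusted p = 0.994), against 4.56% of all genes, with 1 library numbered 5 in each group.

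**Figure D4:**
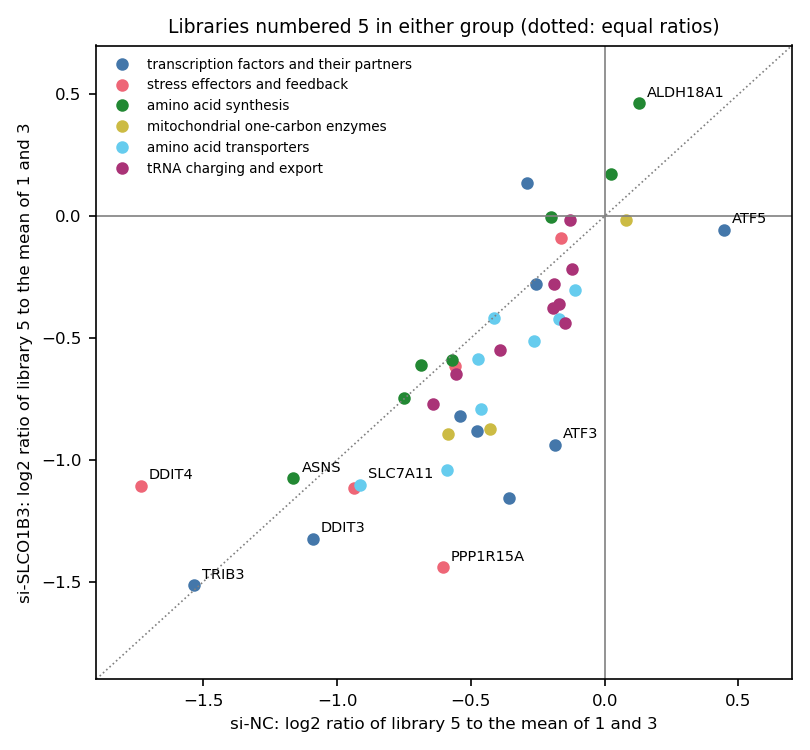
Each point is 1 of the 41 genes, coloured by role, with the log2 ratio of library 5 to the mean of libraries 1 and 3 in si-NC (x axis) and in si-SLCO1B3 (y axis). Most points, 36 of 41, lie below 0 on both axes, with DDIT4 and TRIB3 farthest to the left.

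Other genes of the pathway were read beside the members. Of 25 other targets of ATF4 and CHOP 22 were tested, and their median for libraries 5 against 1 and 3 was -0.52. Of these 2 were called lower (9.09%) and 0 higher, against 2.92% and 2.0% of all genes. At an unadjusted p under 0.05 there were 13 lower (59.1%) and 1 higher, against 15.6% and 13.5% of all genes. PCK2, mitochondrial phosphoenolpyruvate carboxykinase, was at 45.7, 63.6 and 16.8 CPM in si-NC and at 78.1, 67.1 and 27.8 CPM in si-SLCO1B3 (-1.54, SE 0.18, adjusted p = 0.0282). KLHL24, a ubiquitin ligase adaptor, had a log2 fold change of -0.92 (SE 0.11, adjusted p = 0.0282). Between si-SLCO1B3 and si-NC the target with the smallest p was BBC3, the pro-apoptotic BH3 protein PUMA. It was at 9.40, 19.2 and 14.4 CPM in si-NC and at 41.5, 31.2 and 23.8 CPM in si-SLCO1B3 libraries, which do not overlap. Its log2 fold change was 1.17 (SE 0.30, edgeR's unadjusted p = 0.00519, adjusted p = 0.9998), and 5.01% of all genes were wholly higher.

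The 5 other lists of the pathway and its neighbours had medians between -0.049 and 0.14 for libraries 5 against 1 and 3. Of all genes, 15.6% were lower and 13.5% higher at an unadjusted p under 0.05, and 2.92% and 2.0% after adjustment. The 19 genes of eIF2 kinases, eIF2 and eIF2B had a median of 0.082, with 6 higher and 0 lower at an unadjusted p under 0.05, among them the kinases EIF2AK4 (0.31, adjusted p = 0.0586) and EIF2AK3 (0.38, adjusted p = 0.157). The gene called higher was EIF2S1, the phosphorylated subunit of eIF2 (0.43, SE 0.081, adjusted p = 0.0453). The medians were 0.074 for 15 cytosolic tRNA synthetases and partners that are not members and 0.043 for 17 mitochondrial ones. In either list 0 were called. At an unadjusted p under 0.05, 4 of the 15 were higher and 0 lower, and of the 17, 1 was higher and 1 lower. In these lists the smallest p were 0.0121 (FARSA, 0.36) and 0.0130 (MARS2, 0.51), and both of these genes were higher. The 20 ER chaperones and genes of the ATF6 and XBP1 arms had a median of -0.049, with 0 called and 3 lower at an unadjusted p, led by EDEM1 (-0.43, unadjusted p = 0.0195, adjusted p = 0.108). Of 20 genes of amino acid sensing upstream of mTORC1 (median 0.14), SESN3, a relative of SESN2, was called lower (-1.02, SE 0.19, adjusted p = 0.0453). Of the epithelial markers 5 were tested, with a median of 0.42, and KRT18 was called higher (0.51, SE 0.067, adjusted p = 0.0311). KRT8 (0.51, adjusted p = 0.0605) and CDX2 (0.42, adjusted p = 0.0968) were above 0, and CDH1 (-0.45, adjusted p = 0.128) and EPCAM (-0.062) below. The markers of other cell types summed to 202 and 147 CPM in the libraries numbered 5 and to 114 to 185 CPM in the others. Of these 9 markers 7 were tested, all with a log2 fold change above 0 (median 0.20) and 0 with an unadjusted p under 0.05, and the leukocyte marker CD3E was at 0 to 0.189 CPM. The part of these markers in the number 5 difference was not tested.

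Between si-SLCO1B3 and si-NC 0 genes of these lists passed an adjusted p of 0.05 in edgeR, and the genes with the smallest p in their lists included the following. SAMTOR, a sensor of S-adenosylmethionine upstream of mTORC1, was at -0.66 (unadjusted p = 0.00899), 1 of 3 genes of its list lower at an unadjusted p under 0.05. AIMP2, a scaffold of the multisynthetase complex, was at 0.44 (unadjusted p = 0.0212), the only gene of its list under 0.05. Of all genes 4.36% had an unadjusted p under 0.05 in this comparison. HSPA5, the main chaperone of the endoplasmic reticulum, was at 0.17 (unadjusted p = 0.179) and the kinase EIF2AK2 at -0.17 (unadjusted p = 0.230). Among the markers, KRT8 was at -0.30 (unadjusted p = 0.203) and COL1A2 at -0.51 (unadjusted p = 0.0902).

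The promoter match was set beside the difference in libraries numbered 5. The 14 genes with a CARE core in the window had a median log2 fold change of -0.57 for libraries 5 against 1 and 3, all 14 negative, and the 21 tested genes with a window but no core had a median of -0.58, with 19 negative. Of all genes called lower in the libraries numbered 5, 4.78% of 335 with a window held the core, and of those called higher 1.57% of 254 did. The share over all tested genes with a window was 2.77%. The genes called lower include members, which were named as genes of the ATF4 pathway and add to the 4.78%. Of the 11 members called lower, ASNS, CARS1, AARS1 and SLC1A4 had it, and TRIB3, DDIT4, PSAT1, CTH, MTHFD2 and CEBPB had a window without it.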

How the data were processed

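The authors deposited whole-number read counts per gene and the FPKM made from them. The submitters' processing notes name CASAVA 1.8, fastp 0.19.5, HISAT2 2.1.0 and edgeR, with hg38 and GRCh38. The counting program is not given in the sources used here, and the methods call the assay a microarray. Symbols and positions came from GENCODE 29, which held 99.55% of the gene identifiers.

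The quasi-likelihood test of edgeR 4.0.16 (R 4.3.3) was run on the deposited counts with TMM factors, filterByExpr (at least 10 counts in enough libraries, 15 in all) and Benjamini-Hochberg adjustment over 16414 genes. Models held the group, the group and number 5, or their interaction. SE is the absolute log2 fold change over the root of F. Alternatives were limma-voom (limma 3.58.1), DESeq2 1.42.0, its size factors, other filters, log2 of the authors' FPKM plus 1 or 0.1, a replicate block and leaving out libraries. The tests were tried on simulated data.

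The titles give both groups the numbers 1, 3 and 5. Deviations from group means correlated across genes at r = 0.120, 0.171 and 0.463 for the same number and at -0.359 to 0.271 for different numbers. Only number 5 stood apart. Library 1 of si-NC correlated with si-SLCO1B3 library 3 at 0.128, and library 3 of si-NC with si-SLCO1B3 library 1 at 0.271. The first value exceeds that of number 1 (0.120) but not that of number 3 (0.171), and the second exceeds both. The pairing of numbers 1 and 3 was thus taken from the titles alone. The replicate block and the ratios within each number rest on it. No library was a copy of another.

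Members and lists were chosen with earlier results of these data known. The genes named by rule were core members (ATF4, ATF3, DDIT3, TRIB3, CHAC1, ASNS, PSAT1, SESN2, DDIT4, SLC7A11, SLC7A5), members called, the widest of each role, and in other lists the called genes or the one with the smallest p. Other members, EIF2AK3, EIF2AK4, the epithelial markers other than KRT18 in the libraries numbered 5 and the overlapping genes were named after their values were seen. A gene that this rule names is not reported here.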

Additional observations from a re-analysis of the deposited data

How the results depend on the processing

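For si-SLCO1B3 against si-NC, 0 members were called under every alternative run, while members higher at an unadjusted p under 0.05 were 2 with the replicate block, 2 without both libraries numbered 5, and 0 to 4 with 1 library left out. The replicate block changed no other call. CHAC1 turned sign under limma-voom (-0.018) and limma on log2 of FPKM plus 1 (-0.0031) and plus 0.1 (-0.0054). With 1 library left out the log2 fold changes ran from -0.48 to 0.45 for CHAC1, -0.012 to 0.15 for ATF4, -0.11 to 0.26 for PSAT1, -0.077 to 0.63 for SESN2, -0.23 to 0.68 for DDIT4, -0.15 to 0.42 for SLC7A11, -0.0077 to 0.28 for SLC7A5 and -0.078 to 0.93 for PPP1R15A, the negative ends without si-SLCO1B3 library 1 or si-NC library 5. For libraries 5 against 1 and 3, members called lower were 22 under DESeq2, 8 to 13 under the other alternatives that kept all libraries, and 0 to 1 with 1 left out, where a lone library numbered 5 was assumed to vary like the rest. Members lower at an unadjusted p ran from 13 to 28 with 1 left out, and members higher were 1 without the filter and 0 to 1 with 1 left out. For the difference between groups, members lower at an unadjusted p were 0 under limma-voom, DESeq2 and limma on FPKM plus 1 or plus 0.1, and 0 to 3 with 1 left out, and members higher 0 to 1. That model could not be fitted without a library numbered 5. Fewer samples enter each fit with a library left out, and the cause of the other shifts was not tested.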
